A study of Mus musculus with 4 samples.

Results

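Adipocyte genes were followed in RNA from the mouse Achilles tendon. The set holds 10 genes of 23352 entries in the deposited tables, taken by symbol as markers of fat cells and their lipid droplets: Adipoq, Fabp4, Plin1, Plin4, Cidec, Lep, Cfd, Retn, Pparg and Lpl. All 10 were found in both tables. The mice were male and homozygous for Scx-EGFP, a reporter of the tendon gene Scx, on a C57BL/6 background, and every group carried it, the sham groups included. Neonates of 7 days and adults of 6 months had either a sham operation (left hindlimb) or an Achilles tenotomy (right hindlimb), and RNA was taken 5 days later. The neonatal sham and neonatal tenotomy libraries were each made from a pool of 11 mice, the adult sham library from 5 mice and the adult tenotomy library from 9 mice, and values are given in that order. After tenotomy the distal stump was collected without the connective tissue around it.

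White adipocytes store triglyceride in a single large lipid droplet coated by perilipins, and they take up fatty acids that lipoprotein lipase releases from circulating lipoproteins. PPARγ, encoded by Pparg, is the nuclear receptor that drives their differentiation, together with C/EBP factors. They secrete adiponectin, leptin, adipsin and, in mice, resistin. Fat pads lie next to the Achilles tendon and between it and the bone, and several genes used as fat markers are also expressed elsewhere: Lpl and Plin4 in skeletal muscle, and Fabp4 in capillary endothelium and macrophages.

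The libraries behind these values were shallow. Expression was given as FPKM, a fragment count per kilobase of transcript and per library size, and the spacing of its low values implied 2680000, 3260000, 1780000 and 2410000 fragments. Fragments per gene were estimated from these depths, and 95% intervals cover counting error only, not the spread between animals. No difference below has a replicate check. Tendon markers were present in every library: Col1a1, the main tendon collagen, stood at 22438, 13214, 5578 and 5766 FPKM, in the same order. Other tenocyte genes did not all follow it, and their list is given below with the markers of other cell types.

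In mm10, as the authors' tables list them, Adipoq lies at chr16:23146536-23157968, Fabp4 at chr3:10204343-10208576, Lpl at chr8:68880555-68906932, Retn at chr8:3655770-3659818 and Plin1 at chr7:79721164-79732776. Chromosome 6 holds Lep (chr6:29060221-29073876), Cidec (chr6:113424636-113435755) and Pparg (chr6:115361221-115490401), and Plin4 lies at chr17:56079657-56109802. Cfd likewise comes to chr10:79697305-80369637, a locus of 672333 bases, although its RefSeq gene spans 1803. Plin4 spans 30146 bases against 9362 in RefSeq, so the FPKM of both is less certain. All 10 are protein-coding.

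Promoter sequences are shown for Lep, Plin1 and Pparg, chosen because the C/EBP motif lay close to the start. Adipoq, the gene most used to mark fat cells, is shown beside them, and the motif was not found in its promoter. The part of this motif in the expression values was not tested. The match nearest to the start lay 55 to 48 bases before it in Lep, 58 to 51 in Plin1 and 16 to 9 in Pparg. Each run is the 150 bases before a transcript start in RefSeq (GRCm38.p6), read 5′ to 3′ on the gene's strand, and capitals mark the motif.
Lep, chr6:29060071-29060220, plus strand: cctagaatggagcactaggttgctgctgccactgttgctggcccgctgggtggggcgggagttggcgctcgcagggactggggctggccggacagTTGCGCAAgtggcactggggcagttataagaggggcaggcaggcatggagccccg
Plin1, chr7:79732777-79732926, minus strand: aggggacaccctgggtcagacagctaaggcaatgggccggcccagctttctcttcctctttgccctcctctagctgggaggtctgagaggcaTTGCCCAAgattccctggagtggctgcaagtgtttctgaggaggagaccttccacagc
Pparg (the start farthest downstream of its 3), chr6:115421916-115422065, plus strand: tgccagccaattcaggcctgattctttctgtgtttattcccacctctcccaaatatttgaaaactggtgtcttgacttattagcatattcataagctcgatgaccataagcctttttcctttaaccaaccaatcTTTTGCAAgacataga
Adipoq, chr16:23146386-23146535, plus strand: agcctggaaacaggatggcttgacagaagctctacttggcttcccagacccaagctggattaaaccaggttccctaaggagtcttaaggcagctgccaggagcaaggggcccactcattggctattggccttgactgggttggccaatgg

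RefSeq gave 11 promoters for 8 of the 10 genes, and 7 motifs were searched on both strands in the 250 bases before each start. The C/EBP motif TTGCNNAA was found in promoters of 4 genes (Lep, Plin1, Pparg and Cidec), that is in 4 of the 11 promoters, and in 9.56% of all 32851 promoters of that length. Its palindromic form TTGCGCAA, which is contained in TTGCNNAA, was found only in Lep among the 8 genes, and in 0.164% of all promoters. The PPAR response element, AGGTCA repeated after 1 free base, and its looser form, AGGNCA repeated likewise, were in none of the 11 promoters and in 0.0335% and 0.338% of all. AGGTCA alone, which is part of both, was in 2 Pparg promoters (14.0% of all), TATAAA in 1 Pparg promoter (12.4% of all), and the SREBP element TCACNCCAC in none of the 11 (1.05% of all). A match describes letters in these windows and not a bound site.

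All 10 genes were listed above 0 in all 4 libraries, and the neonatal sham library held the highest value of each. Levels of the genes there ran from 9.77 FPKM for Lep to 1232 FPKM for Fabp4, with a median of 56.5 FPKM. The medians were 21.4, 8.68 and 7.93 FPKM in the neonatal tenotomy, adult sham and adult tenotomy libraries. Of all FPKM outside small structural RNAs and mitochondrially encoded genes, the 10 genes together held 0.516%, 0.240%, 0.0864% and 0.128%. In pooled tissue, fewer fat cells and less RNA of these genes per cell cannot be told apart.

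**Figure D1:**
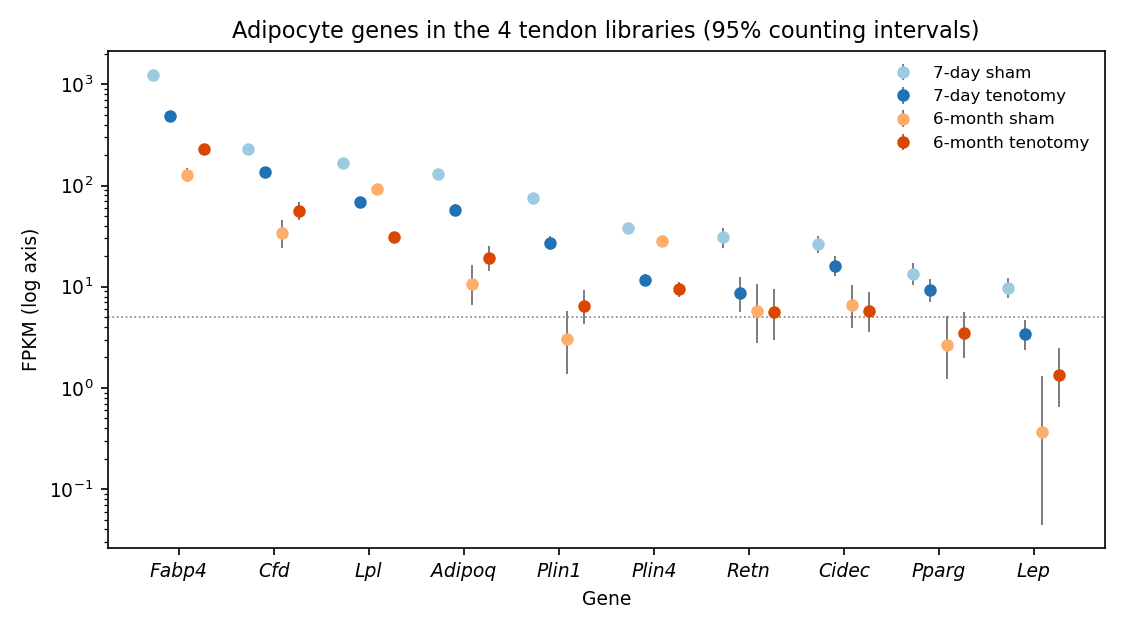
Levels of the 10 adipocyte genes (FPKM, log axis) in the 4 libraries, with 95% counting intervals as bars, where they are larger than the points, and the floor of 5 FPKM as a dotted line. The neonatal sham point is the highest for every gene, and Lep runs from 9.77 FPKM there to 0.363 FPKM in the adult sham library.

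The first comparison asks how fat-cell transcripts differ between cut and sham-operated tendon in neonates. Sham was the left limb and tenotomy the right at both ages. Limb side and the tissue collected therefore cannot be told apart from the operation. All 10 genes had lower values in the neonatal tenotomy library, by 3.31-fold for Retn at most and 1.41-fold for Pparg at least, where 49.0% of all entries had lower values. Adiponectin, leptin, resistin, both perilipin genes, Fabp4 and Lpl were at least 2-fold lower, while Cidec, Cfd and Pparg lay within 2-fold. Ratios here and below are log2((tenotomy FPKM + 1)/(sham FPKM + 1)), folds are on that scale, and a gene is called higher or lower at 2-fold if it reaches 5 FPKM in either library. The 7 of 10 genes called lower stand against 10.3% of all 9424 entries at that floor, none was called higher (5.55% of entries), and the median over the 10 was -1.28, against 0.01 over all entries. The count was 6 with FPKM rescaled to a common sum, where Adipoq lay at -0.98, and 6 with a pseudocount of 5 FPKM, where Lep lay at -0.82. The share of all entries called lower under these settings was not worked out.

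Among the secreted products, Adipoq (adiponectin) stood at 129 (sham) and 57.8 (tenotomy) FPKM at 7 days, a ratio of FPKM of 0.449 with a counting interval of 0.377 to 0.534. Lep, the satiety hormone leptin, stood at 9.77 and 3.39 FPKM, from about 80 and 34 fragments. Retn, resistin, stood at 30.7 and 8.58 FPKM, a ratio of 0.279 (0.171 to 0.438). The values of these 3 hormone genes were thus lower by more than their counting intervals allow. Cfd (adipsin, the complement protease factor D) stood at 229.8 and 137 FPKM, a ratio of 0.596 (0.514 to 0.688). Cfd was thus lower without reaching 2-fold, and its merged locus makes the value less certain.

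The lipid droplet genes were lower in the same library. Plin1, the perilipin that gates lipolysis on the fat-cell droplet, stood at 74.8 (sham) and 26.9 (tenotomy) FPKM, a ratio of 0.360 (0.296 to 0.438). Plin4, a perilipin of nascent droplets, stood at 38.1 and 11.6 FPKM, a ratio of 0.304 (0.258 to 0.357). Cidec, which promotes droplet fusion, stood at 26.2 and 16.0 FPKM, a ratio of 0.610 (0.448 to 0.819). Cidec was thus lower beyond counting error without reaching 2-fold.

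The genes of lipid uptake and of the differentiation programme differed in size. Fabp4, the cytosolic fatty acid carrier and the most abundant of the 10, stood at 1232 and 484 FPKM, a ratio of 0.392 (0.365 to 0.422). Lpl, lipoprotein lipase, stood at 166 and 68.7 FPKM, a ratio of 0.415 (0.382 to 0.450). Pparg stood at 13.4 and 9.21 FPKM, a ratio of 0.688 (0.479 to 0.994), which is the smallest difference of the 10 and close to the limit of counting error.

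In adults the genes split. With 1 added to FPKM, Adipoq, Fabp4, Plin1 and Cfd were 1.67- to 1.86-fold higher in the adult tenotomy library without reaching 2-fold. Plin1, low in FPKM, reached 2.14-fold without the added 1. Plin4 and Lpl were 2.80- and 2.92-fold lower, and Retn and Cidec were nearly level. Lep and Pparg were below 5 FPKM in both adult libraries and have no call. Of the 8 genes at the floor, 2 were called lower, where 11.9% of all 9001 entries were, and none was called higher, where 9.62% were. The median over the 8 was 0.35, against -0.03 over all entries, and it lay between the gene groups just named. It turned to -0.37 with a floor of 20 FPKM. With FPKM rescaled without muscle genes and small RNAs, 2 genes, Fabp4 and Plin1, passed 2-fold higher, with log2 ratios of 1.03 and 1.07. That rescaling shifted the log2 scale by 0.20 for every entry, and the median over all entries became 0.18. The share of all entries called higher under it was not worked out.

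Adipoq stood at 10.7 (sham) and 19.1 (tenotomy) FPKM at 6 months, a ratio of 1.78 with a counting interval of 1.04 to 3.08 from about 21 and 50 fragments. Fabp4 stood at 127 and 227 FPKM, a ratio of 1.79 (1.48 to 2.17), and Plin1 at 3.01 and 6.44 FPKM, a ratio of 2.14 (1.01 to 5.36) from about 9 and 27 fragments. Cfd stood at 33.6 and 56.6 FPKM, a ratio of 1.69 (1.18 to 2.49). These 4 genes were higher after tenotomy beyond counting error, by a narrow margin for Adipoq and Plin1. None of the 4 was called significant in the authors' deposited tables, and the merged locus of Cfd makes its value less certain.

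Plin4 stood at 28.1 and 9.41 FPKM at 6 months, a ratio of 0.335 (0.269 to 0.415), and Lpl at 93.2 and 31.2 FPKM, a ratio of 0.335 (0.291 to 0.385). Both were lower at 6 months by about as much as at 7 days. Cidec stood at 6.64 and 5.74 FPKM, a ratio of 0.865 (0.437 to 1.72), and Retn at 5.74 and 5.57 FPKM, a ratio of 0.971 (0.389 to 2.45). Pparg stood at 2.68 and 3.47 FPKM, a ratio of 1.30 (0.546 to 3.37), and Lep at 0.363 and 1.35 FPKM, a ratio of 3.71 (0.787 to 34.7) from about 2 and 10 fragments. For these last 4 genes no difference was detectable at this depth.

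**Figure D2:**
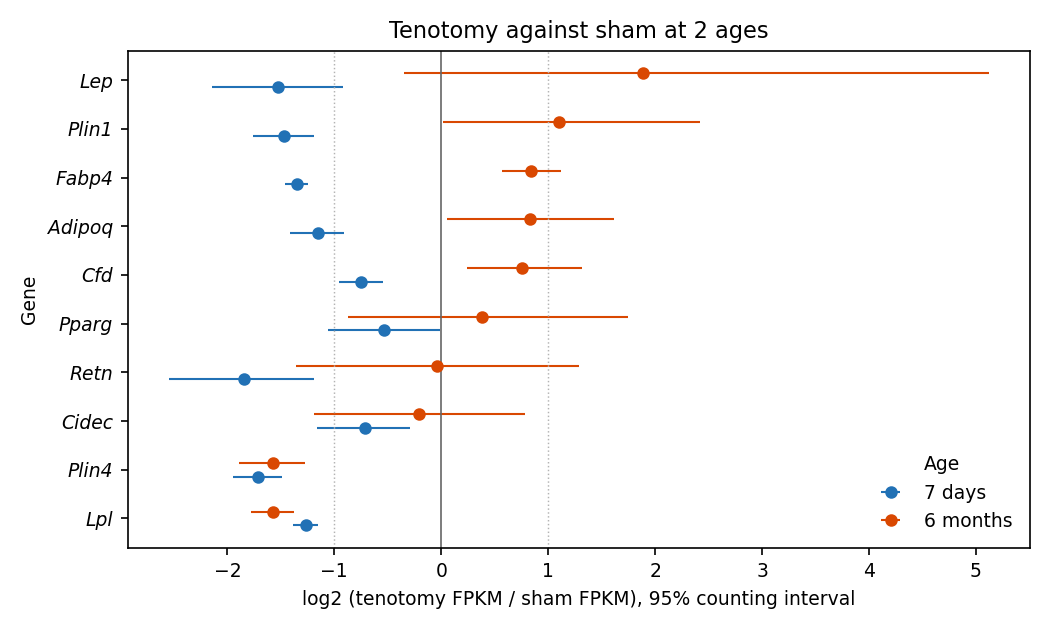
Log2 of the tenotomy to sham FPKM ratio for each gene at 7 days (blue) and 6 months (orange), with 95% counting intervals as bars and 2-fold as dotted lines. At 7 days every point lies below 0, and at 6 months the points run from Plin4 and Lpl (ratios of 0.335) to Plin1 (2.14) and Lep (3.71).

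The ratios at both ages were then set side by side. The neonatal log2 ratio minus the adult log2 ratio was below 0 for 9 of 10 genes, with a median of -1.59, against -0.03 over all entries. It was called lower for 6 genes, where 8.82% of 10077 entries were, and higher for none, where 5.64% were. The 6 genes were Plin1 (-2.33), Fabp4 (-2.18), Lep (-2.08), Adipoq (-1.92), Retn (-1.69) and Cfd (-1.48). Lep reached the floor only in the neonatal sham library, and its adult ratio rests on about 2 and 10 fragments with an interval of 0.787 to 34.7. The value was -0.15 for Plin4 and 0.29 for Lpl, so these genes of fat and muscle had like ratios at both ages. Of the 8 genes at the floor at both ages, 4 (Adipoq, Fabp4, Plin1 and Cfd) were below 0 at 7 days and above 0 at 6 months, a pattern seen in 12.9% of 8348 entries.

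**Figure D3:**
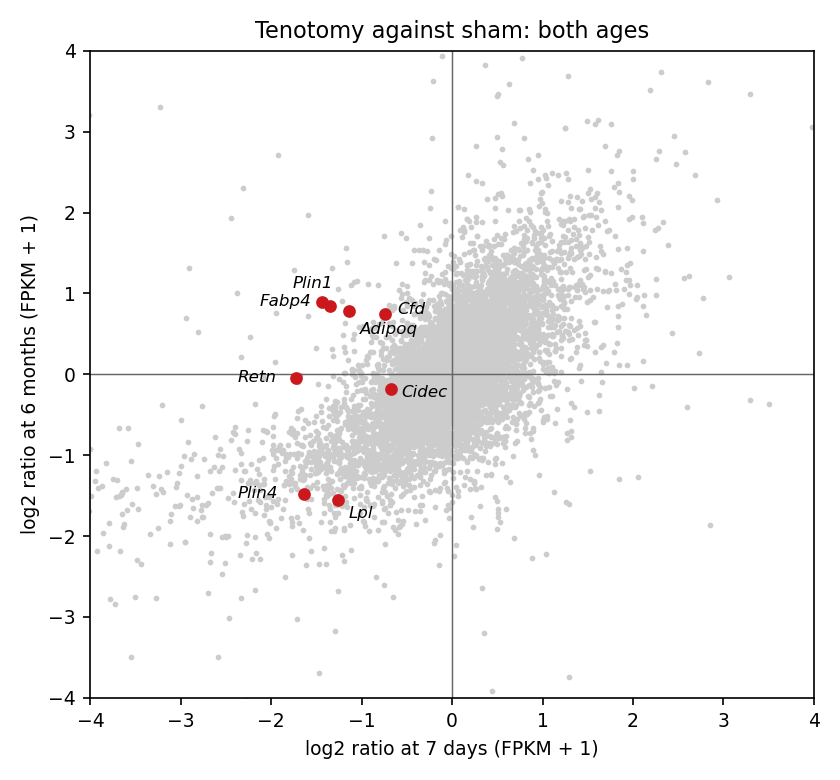
Log2 ratio of tenotomy to sham at 7 days (x axis) and 6 months (y axis), each with 1 added to FPKM, for 8348 entries at or above 5 FPKM at both ages (grey) and the 8 adipocyte genes among them (red). Axes end at 4 in each direction, which leaves out 147 entries. Plin1, Fabp4, Adipoq and Cfd lie in the upper left, and Plin4 and Lpl in the lower left.

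Levels were also compared between ages, across tables that may have been normalized separately. After sham, 8 of 10 genes were at least 2-fold lower at 6 months than at 7 days, where 13.1% of 9323 entries were, and none was higher, where 6.67% were. The lowest was Plin1, 18.9-fold lower, followed by Adipoq (11.1-fold), Fabp4 (9.64-fold) and Lep (7.90-fold). Plin4 and Lpl lay within 2-fold, at 1.34- and 1.77-fold lower. After tenotomy 7 of the 9 genes at the floor were lower at 6 months, where 10.1% of 9201 entries were, and none was higher (6.61% of entries). Plin1 was 3.75-fold, Adipoq 2.93-fold and Fabp4 2.12-fold lower there, smaller differences than after sham, while that of Lpl was larger (2.16-fold). Small structural RNAs held a larger part of the summed FPKM in adults, 41.3% (sham) and 51.7% (tenotomy) against 28.6% and 27.3% in neonates, and their part in the differences between ages and between the adult libraries was not tested. The count after tenotomy depended on the scaling, chosen for this comparison after the values were seen. With FPKM rescaled without muscle genes and small RNAs, 3 of the 9 genes (Adipoq, Plin1 and Cidec) were lower at 6 months after tenotomy, where 4.15% of entries were, and the log2 ratio of Adipoq moved from -1.55 to -1.21. The sham count stayed at 8 under that scaling, the median over all entries moved from -0.25 to -0.04, and Adipoq from -3.47 to -3.27. Under a common FPKM sum, 9 genes were lower after sham (19.5% of entries) and 7 after tenotomy (20.9% of entries), with sham values of -0.45 for the median over all entries and -3.67 for Adipoq.

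Setting each gene beside Adipoq within a library takes out the scaling between libraries. Fabp4 stood at 9.57, 8.36, 11.8 and 11.9 times the FPKM of Adipoq in the 4 libraries, a span of 1.43-fold. Cfd stood at 1.78, 2.37, 3.13 and 2.97 times, and Plin1 at 0.581, 0.466, 0.280 and 0.337 times. The ratios of these 3 genes to Adipoq thus spanned at most 2.07-fold, while Adipoq itself ran from 10.7 to 129 FPKM. The spans of Lep, Pparg, Cidec and Retn were 2.24-, 2.40-, 3.05- and 3.60-fold, on few fragments in adults. Lpl stood at 1.29, 1.19, 8.70 and 1.64 times Adipoq and Plin4 at 0.296, 0.201, 2.62 and 0.493 times. Both were high against Adipoq in the adult sham library, with spans of 7.32- and 13.1-fold. This measure was chosen after the values were seen.

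**Figure D4:**
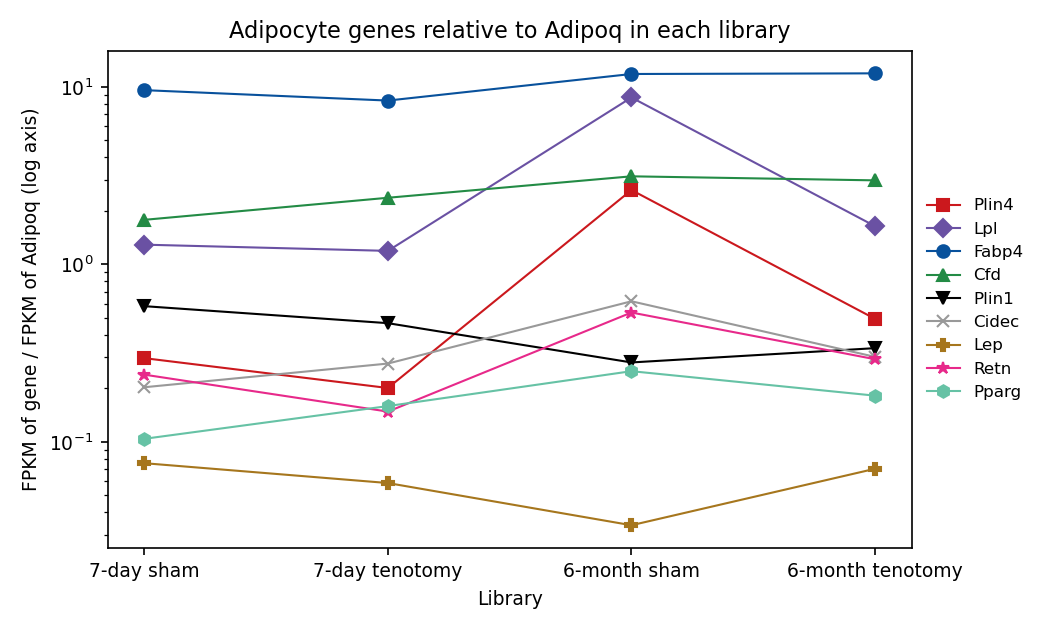
FPKM of each gene divided by the FPKM of Adipoq in the same library (log axis); lines join the values of a gene and carry no time course. Fabp4 stays between 8.36 and 11.9, whereas Lpl (8.70) and Plin4 (2.62) peak in the adult sham library.

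Markers of other cell types also differed between the libraries. The 20 mature skeletal muscle genes, all called lower at both ages, held 6.38%, 0.0207%, 14.6% and 6.01% of that FPKM. Myh4, a fast muscle myosin, stood at 61.2, 0.627, 2962 and 1227 FPKM, and only Mybpc2 of the list was at 0, in the neonatal tenotomy library. The muscle share was thus highest in the library where Lpl and Plin4 were highest against Adipoq. Between the neonatal libraries it went from 6.38% to 0.0207%, while Lpl went from 1.29 to 1.19 times Adipoq and Plin4 from 0.296 to 0.201 times. The part of the muscle share in the ratios of Lpl and Plin4 was not tested. The 12 endothelial genes held 0.0685%, 0.119%, 0.0359% and 0.0696%, with 2 called higher and none lower at each age. The 12 macrophage genes held 0.116%, 0.332%, 0.147% and 0.701%, with 9 called higher at 7 days and all 12 at 6 months. No gene of the endothelial or macrophage lists was at 0 in any library. The summed shares of both lists were higher after tenotomy at both ages, while Fabp4 was lower at 7 days, and their part in its values was not tested. The 9 tenocyte genes held 6.61%, 4.55%, 2.99% and 2.46%. At 7 days 2 of them were called lower and 1 higher (median -0.11), and at 6 months 6 were lower and none higher (median -1.34). Col1a1 lay at -0.76 and 0.05. Of all entries, 10.3% were called lower and 5.55% higher at 7 days, and 11.9% and 9.62% at 6 months. The 8 skin and sebaceous genes held at most 0.00769% in any library.

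**Figure D5:**
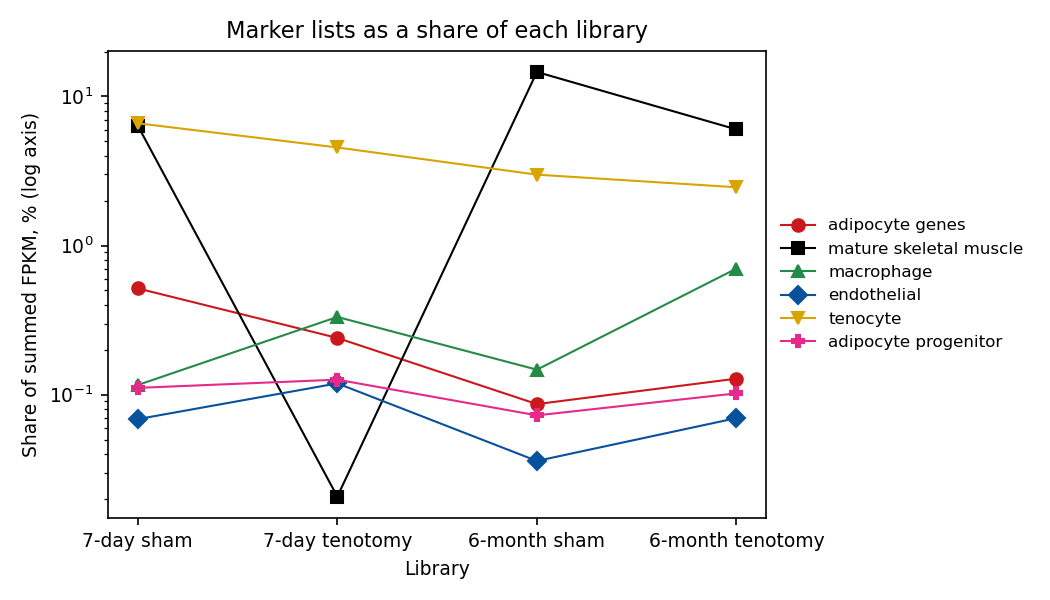
Share of the FPKM outside small structural RNAs and mitochondrially encoded genes (percent, log axis) taken by the adipocyte genes and 5 marker lists in each library; lines join the values of a list. Muscle genes run from 0.0207% to 14.6%, and the adipocyte genes from 0.0864% to 0.516%.

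Paralogs of the 10 genes went their own ways. Fabp3, the fatty acid binding protein of muscle, stood at 267 and 2.72 FPKM at 7 days and 384 and 20.4 at 6 months (sham, then tenotomy). Fabp5, the form of epidermis and macrophages, stood at 46.8 and 133 FPKM at 7 days and at 6.66 and 65.9 at 6 months. Fabp5 was thus called higher after tenotomy at both ages and Fabp3 lower at both, whereas Fabp4 was called lower at 7 days and lay within 2-fold at 6 months. Fabp7 was at or near 0 throughout.

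Among the perilipins, Plin2, which coats droplets in most cell types, stood at 30.6 and 36.0 FPKM at 7 days and at 24.6 and 73.8 at 6 months, 2.92-fold higher in adults after tenotomy. Plin3 stood at 22.6 and 20.2 FPKM and at 16.4 and 13.6, and Plin5, the perilipin of oxidative tissues, never reached 5 FPKM. The adult stump thus held more Plin2 and Plin1 and less Plin4 transcript than sham. The Plin1 difference was within 2-fold with 1 added to FPKM and 2.14-fold without it. Cidea and Cideb stayed below 2 FPKM in every library. Of the resistin family, Retnla, a gene of alternatively activated macrophages and fat, stood at 6.33 and 0 FPKM at 7 days and at 2.75 and 1.02 at 6 months. Retnlg, expressed by neutrophils, stood at 0.883 and 2.93 FPKM and at 1.34 and 11.0. Retnlb was listed at 0 in all 4 libraries.

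The other genes of fat storage and breakdown were described from lists chosen by function. Beside the counts of this list and those that follow, 10.3% of all entries were called lower and 5.55% higher at 7 days. At 6 months 11.9% were called lower and 9.62% higher. Of 10 lipid droplet and lipolysis genes at the floor at 7 days, 4 were lower and none higher (median -0.62), among them Pnpla2, the triglyceride lipase ATGL (2.79-fold lower, from 57.7 FPKM after sham), and Fitm2, a triglyceride-binding protein of droplet formation (21.1 and 7.58 FPKM). At 6 months 2 of 10 were lower and 2 higher (median -0.28). Pnpla2 (31.7 and 13.2 FPKM) and Fitm2 (19.2 and 7.97 FPKM) were again lower. Hilpda, a hypoxia-induced inhibitor of ATGL, was higher at 3.06 and 12.0 FPKM, as was Plin2. Lipe, hormone-sensitive lipase, stood at 38.8 and 17.3 FPKM at 7 days and at 7.73 and 6.05 at 6 months.

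Of 17 genes of fatty acid and glyceride synthesis at the floor at 7 days, 9 were lower and none higher (median -1.16). At 6 months 6 of 16 were lower and none higher (median -0.82). Acacb, the mitochondrial acetyl-CoA carboxylase, stood at 14.8 and 1.47 FPKM at 7 days and at 36.7 and 8.60 at 6 months. Gpam, the first enzyme of triglyceride synthesis, stood at 32.8 and 7.06 FPKM and at 26.3 and 8.51, and Acsl1, which activates fatty acids, at 129 and 34.9 and at 43.0 and 16.1. These 3 genes, also used by muscle, were lower at both ages. Pck1, which makes glycerol backbones in fat, was lower at 7 days (50.0 and 14.4 FPKM) and below the floor at 6 months. Agpat2, needed for fat-cell triglyceride synthesis, stood at 32.1 and 13.3 FPKM at 7 days and at 3.23 and 6.88 at 6 months, and Scd1, stearoyl-CoA desaturase, at 391 and 251 and at 42.9 and 78.3. Agpat2 and Scd1 thus took the directions of Adipoq at both ages, and were chosen for mention after their values were seen.

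Gpihbp1 and Angptl4, which act with Lpl, differed from it at 6 months. Gpihbp1, which anchors lipoprotein lipase to capillary endothelium, stood at 2.77 and 11.6 FPKM at 6 months and at 22.0 and 14.6 at 7 days. Its adult sham value was thus under the floor of 5 FPKM. Angptl4, a secreted inhibitor of the lipase, stood at 12.7 and 60.8 FPKM at 6 months and at 14.8 and 30.0 at 7 days. In adults the partner and the inhibitor were thus called higher where Lpl was called lower. Lmf1, of the same list, stood at 6.45 and 4.80 FPKM at 6 months, lower within 2-fold, and at 6.43 and 8.97 at 7 days. The insulin-responsive glucose transporter gene Slc2a4 was lower at both ages (24.5 and 1.28 FPKM at 7 days, 61.4 and 22.6 at 6 months), as was Vldlr (14.0 and 1.36, then 32.1 and 11.0). Of 11 uptake genes at the floor at 7 days, 5 were lower (10.3% of all entries) and none higher (5.55%), with a median of -0.80. At 6 months 2 of 10 were lower (11.9% of all entries) and 2 higher (9.62%), with a median of -0.08.

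Regulators of the fat-cell programme lay mostly within 2-fold at 7 days. Of 8 adipogenic transcription factor genes at the floor, 1 was lower, Rxrg (5.28 and 0.823 FPKM), and none was higher (median -0.21). This count lies near the 10.3% of all entries called lower at 7 days. Cebpa, which acts with Pparg to establish the fat-cell state, stood at 35.0 and 24.1 FPKM at 7 days and at 16.2 and 21.2 at 6 months, within 2-fold at both. At 6 months 4 of 11 were lower and none higher (median -0.48): Klf15 (14.8 and 2.36 FPKM), Ppargc1a (5.32 and 0.723), Rxrg (19.3 and 6.54) and Cebpd (35.8 and 17.2). Rxrg and Ppargc1a are also muscle genes.

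Further fat-cell genes were mostly lower at 7 days. Of 9 such genes at the floor, 5 were lower and none higher (median -1.68). Adig, adipogenin, stood at 28.4 and 4.15 FPKM, Npr3, the natriuretic peptide clearance receptor, at 11.2 and 1.72, Mrap, a melanocortin receptor accessory protein, at 7.89 and 1.53, and Car3, a carbonic anhydrase of fat and muscle, at 848 and 219. At 6 months 2 of 6 were lower, Car3 (617 and 165 FPKM) and Npr3 (5.95 and 1.78), and 1 higher, Pde3b (6.77 and 14.8), with a median of -0.39. Adig and Mrap were below the floor in adults.

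Receptors for the hormones were measured in all libraries. Adipor1 stood at 67.3 and 46.9 FPKM at 7 days and at 138 and 73.0 at 6 months, and Adipor2 at 40.2 and 20.2 and at 30.4 and 17.0, both within 2-fold. Cdh13, T-cadherin, which binds adiponectin multimers, stood at 39.9 and 23.4 FPKM and at 40.1 and 19.1, called lower in adults. Lepr, the leptin receptor, stood at 7.22 and 6.52 FPKM at 7 days and at 14.7 and 2.93 at 6 months, where it was called lower.

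Genes of fat-cell progenitors were mixed. Of 9 at the floor at 7 days, 1 was higher, Icam1 (6.69 and 17.1 FPKM), where 5.55% of all entries were. Lower were 2, Dlk1 (46.5 and 16.8) and Dpp4 (7.46 and 1.77), where 10.3% of entries were, and the median was -0.10. At 6 months Icam1 was higher again (4.75 and 17.8 FPKM), F3 was lower (6.62 and 2.70), and the median of 7 genes was -0.13. Dlk1, the preadipocyte factor Pref-1, stood at only 0.144 and 0.427 FPKM in adults. Pdgfra, a receptor of fibroblast and fat progenitors, stood at 38.5 and 53.2 FPKM at 7 days and at 31.1 and 35.8 at 6 months. The progenitor list thus had a median near 0 at both ages, where that of the fat-cell genes was -1.28 and 0.35, and the difference between the lists was not tested. Icam1 is also expressed by endothelium and leukocytes.

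Brown and beige fat genes gave little signal apart from genes shared with muscle. Ucp1, the uncoupling protein that defines brown fat, was listed at 0 in all 4 libraries, and Prdm16, Elovl3 and Dio2 stayed below 5 FPKM. Cox8b (199, 10.6, 531 and 131 FPKM) and Cox7a1 (182, 3.46, 298 and 64.5 FPKM), subunits of cytochrome oxidase in muscle and brown fat, followed the muscle shares given above.

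The entries whose profile over the 4 libraries was most like the mean of the 10 genes were named by Euclidean distance between centred log2(FPKM + 1) values, among 6773 entries reaching 10 FPKM. The nearest were Glb1l2 (0.264), Apcdd1 (0.267), Lipe (0.297), Col1a1 (0.333), Alas2 (0.360), Aldh1l2 (0.372), Hopx (0.385) and Gnai1 (0.399). Lipe is the only one of these 8 in the fat lists. The 10 genes themselves lay 0.442 (Cidec) to 1.83 (Plin4) from their own mean, farther than these entries, so the mean hides the split described above. Nearest to Adipoq alone were Maged2 (0.271), Cdkn1c (0.341) and Fabp4 (0.366). Fabp4 was thus the nearest of the 10 genes to Adipoq, and Plin4 (2.71) and Lpl (2.26) were the farthest.

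None of the 10 genes was called significant in the authors' deposited tables, where 0.859% of 10476 tested genes were called at 7 days and 0% of 8897 at 6 months. In the authors' deposited tables the lowest p-value of the 10 was 0.0436 (Plin1 at 7 days, q-value 0.938), and 1 of 10 lay under 0.05 at 7 days and none of 8 at 6 months.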

How the data were processed

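Per the labels' protocols, RNA integrity was low, ribosomal RNA was depleted and strand was kept; the tenotomy labels also call the tendon uninjured, and groups follow the operation they name. TopHat, Cufflinks and mm10 stand in the submitters' processing notes with neither version nor role. The authors deposited 2 tables of 23351 lines, whose values were taken as FPKM from the Cuffdiff layout and the name Cufflinks. Each deposited p-value and q-value compares 1 library with 1, so it holds no spread between animals. With 1 library a group, no test was made.

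Depth was the number of fragments at which low FPKM of genes with 1 transcript (800 bases or more, less 200 bases of fragment length) came out whole within 0.1 for the largest share of 478 to 509 genes (75.5% to 78.8%). Fragments of each gene used its longest RefSeq-matched GENCODE M21 transcript. Intervals are exact: Poisson for levels and Clopper-Pearson for ratios. The fold rule was tested on simulated data that held counting error only, with no spread between animals. That test gives no rate of false calls between pools.

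The members and the 15 gene lists were chosen with earlier results of these data known; 165 listed symbols were looked for and all were found, Adgre1 and Cavin1 under older names. Genes named are all members, the paralogs and receptors, from each list the 4 or fewer largest ratios past 2-fold at either age, and the nearest profiles. Agpat2, Scd1, Lipe, Cebpa, Pdgfra, Myh4, Mybpc2, Col1a1, Pde3b and the brown fat genes under the floor were named after their values were seen. Alternatives changed the pseudocount, floor, scaling, fold, call and members. Tools were pandas 2.3.3, NumPy 2.4.6, SciPy 1.17.1, matplotlib 3.10.9 and Python 3.11.15.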

Additional observations from a re-analysis of the deposited data

Results flagged for a closer look

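In 4 of the 10 genes the tenotomy library lay below sham at 7 days and above sham at 6 months, with both counting intervals clear of equality. The share of all entries that meet this rule was not worked out. By direction alone, without the intervals, 12.9% of 8348 entries at the floor at both ages had the pattern. The neonatal log2 ratio minus the adult log2 ratio was -2.33 for Plin1, -2.18 for Fabp4, -1.92 for Adipoq and -1.48 for Cfd. With 1 pool per group, the difference between ages was not tested. At 6 months the intervals of Plin1 (1.01 to 5.36) and Adipoq (1.04 to 3.08) barely cleared 1. The endothelial, macrophage and muscle shares given above did not change direction between ages, and their part in these values was not tested.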

How the results depend on the processing

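The 7 genes called lower at 7 days became 0 by the authors' deposited call, as did the 2 called lower at 6 months. The 7 became 6 with FPKM rescaled to a common sum, where Adipoq lay at -0.98, and 6 with a pseudocount of 5 FPKM, where Lep lay at -0.82. Across ages after tenotomy, the 7 genes lower at 6 months became 3 with FPKM rescaled without muscle genes and small RNAs, a setting chosen for this comparison after seeing the data. Those 2 became 1 when Plin4 or Lpl was left out of the list. The 0 genes called higher at 6 months became 1 with a pseudocount of 0.1 FPKM, 2 with FPKM rescaled without muscle genes and small RNAs, and 4 with a threshold of 1.5-fold. That rescaling also moved the median over all entries at 6 months to 0.18. The share of all entries called higher at 6 months under these settings was not worked out. The share called lower at 7 days was likewise not worked out for the common sum or the pseudocount of 5 FPKM. The median over the genes at 6 months ran from -0.37 with a floor of 20 FPKM to 0.74 with Plin4, Cidec, Retn or Lpl left out, and was -0.04 with Adipoq, Fabp4, Plin1 or Cfd left out, so its sign is not settled, while the 7-day median stayed between -1.31 and -1.13. A pseudocount or a floor cannot change the sign of a gene's ratio, so only the rescalings of FPKM could. Under each rescaling every gene stayed below 0 at 7 days, and Adipoq, Fabp4, Plin1, Lep, Cfd and Pparg stayed above 0 at 6 months. The skin and sebaceous list, which rests on 2 genes at 7 days and 1 at 6 months, turned to 0.08 with a floor of 1 FPKM and 0.04 with no floor at 7 days, and to 0.09 with no floor at 6 months, where more low genes enter. Depth limits Lep, Pparg, Retn and Cidec in adults. No paired analysis was possible because each group has 1 library.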
